A study of Cavia porcellus with 72 samples.

Results

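RAB genes encode the RAB GTPases, the largest branch of the RAS superfamily. They were taken here as every listed gene whose symbol is RAB, a number and at most a closing letter and digit, which gave 48 genes of 11927 over the 3 count tables. The F1 and F3 tables listed all 48, of 11651 and 11663 genes, and the F2 table listed 47 of 11716, without RAB13. All listed RAB genes passed the filter on low counts in their generation. The rule used symbols only and no measured value.

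A RAB protein works as a switch. Loaded with GTP by an exchange factor, it sits on the membrane of 1 organelle or vesicle type and recruits effectors such as motors and tethers. After GTP hydrolysis, helped by a GTPase activating protein, it is taken off the membrane by GDI and held in the cytosol. In neurons of the hippocampus, RAB3 proteins ride on synaptic vesicles and bind the RIM proteins of the release site, RAB5 marks early endosomes, RAB11 marks the recycling endosomes that return AMPA receptors to spines, and RAB7 marks late endosomes.

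Messenger RNA of the right hippocampus was sequenced in female Dunkin-Hartley guinea pigs on postnatal day 40. Their lineage began with F0 pregnancies given 3 courses of 2 days each, between gestational days 40 and 61, of either saline (control) or the synthetic glucocorticoid (sGC) betamethasone at a dose of 1 mg/kg. F1 daughters were born from those pregnancies, whereas F2 and F3 daughters descended from them through F1 and F2 males mated with untreated, purchased females, and the animals used had independent mothers. There were 6 control and 5 sGC animals in F1, 6 and 6 in F2, and 6 and 7 in F3, each giving 1 library. The pregnancies that gave F2 and F3 received no treatment.

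Library totals ran from 13507449 to 19767033 counted reads, and the 47 RAB genes listed in all 3 tables, without RAB13, took 0.556% to 0.601% of them. Levels are counts per 1e+06 reads (CPM), scaled by TMM within a generation and not corrected for transcript length. Of 7 markers of hippocampal neurons fixed for the check of the tissue, 6 were listed and none of these was at 0 in any library. By their label numbers, libraries 32 to 36 fall apart from the others of their generation, and all 5 are sGC libraries: F1 replicates 4 and 5, F2 replicate 6 and F3 replicates 5 and 6. The numbers of RAB genes and of RAB regulators called were therefore also computed without these 5 libraries. Library 36, F3 sGC replicate 5, correlated at 0.9997 with the mean of the others in its group. The next highest such value of any library was 0.9985, for F1 control replicate 6. Whether library 36 is independent of the others in its group was not tested. In whole tissue, fewer cells of a type and less RNA per cell cannot be told apart.

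RAB6B, a brain-enriched Golgi RAB, had the most reads, with a mean of 807 CPM over all libraries. RAB2A (493 CPM), RAB3A (485 CPM), RAB15 (375 CPM) and RAB5B (372 CPM) followed it. The fewest reads fell on RAB27A (2.86 CPM), RAB3B (4.62 CPM), RAB43 (5.32 CPM), RAB29 (5.54 CPM) and RAB37 (5.71 CPM), and the smallest count of any RAB gene in any library was 31 reads. Because CPM grows with transcript length, this order of reads is not an order of transcript number. Control animals differed little: the median coefficient of variation over RAB genes was 5.23% in F1, 5.75% in F2 and 5.28% in F3, and the widest value was 27.3%, for RAB7B in F3.

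Control levels of RAB genes were nearly alike in F1 and F3. The F3 to F1 ratio of the control means ran from 0.907 to 1.18 over the 47 RAB genes in all 3 tables. All 47 thus lay within 1.2-fold, as did 97.4% of all 11161 genes compared. Against F1, the F2 control means ran from 0.653 to 2.7 times. RAB1A, which acts between ER and Golgi, had 97.8 ± 3.58 CPM (SD, n = 6) in F1 controls, 267.9 ± 4.13 CPM (SD, n = 6) in F2 controls and 99.0 ± 4.80 CPM (SD, n = 6) in F3 controls. RAB9B, a late endosome RAB, had 30.8, 65.8 and 29.6 CPM, and RAB3C 133, 234 and 157 CPM, in F1, F2 and F3 controls. RAB24, linked to autophagy, was the only RAB gene whose F2 control mean lay more than 1.5-fold below F1, with 119.6 CPM in F1, 78.1 CPM in F2 and 116 CPM in F3. Over all genes in the 3 tables, 7.93% differed by more than 1.5-fold between F1 and F2 controls and 0.233% between F1 and F3 controls. F2 was thus the generation apart for the whole table, RAB genes included. Generation and any difference in how the F2 table was made cannot be told apart, so levels were compared only within a generation.

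**Figure D1:**
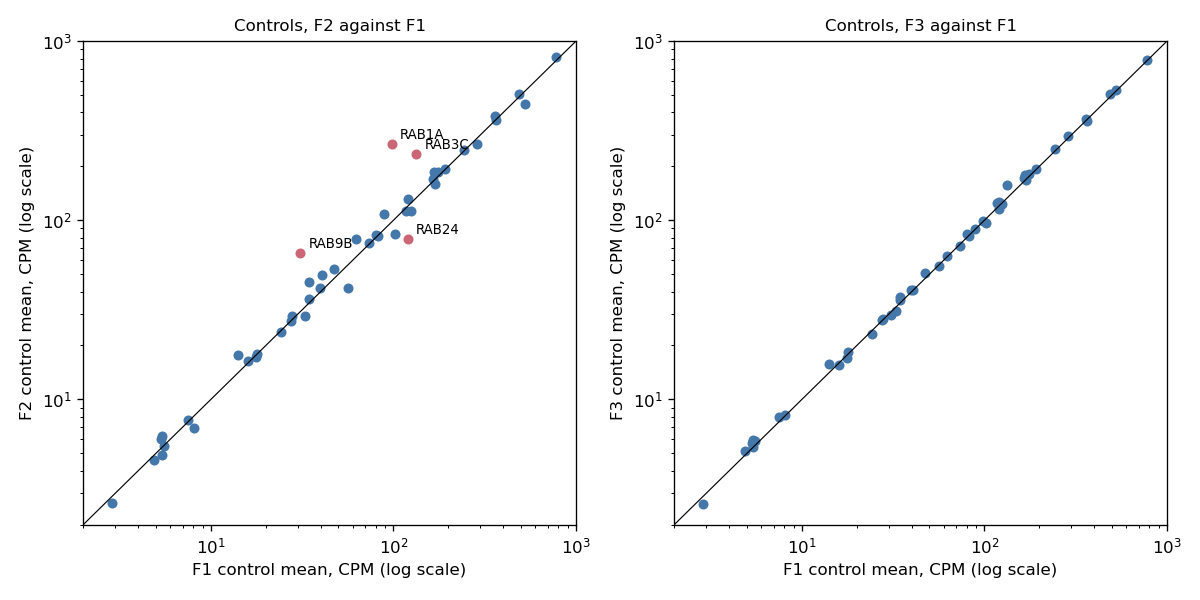
Mean CPM of the 47 RAB genes listed in all 3 tables in F2 controls (left) and F3 controls (right) against F1 controls (6 animals each), on log axes, with the line of equal levels. RAB1A, RAB9B, RAB3C and RAB24, marked in red, lie more than 1.5-fold off the line in F2 and within 1.2-fold of it in F3.

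The first question was whether prenatal sGC changed RAB transcripts in the daughters of the treated pregnancies. In F1, RAB3C, a synaptic vesicle RAB and close paralog of RAB3A, was the only RAB gene past the threshold of 0.05 on the adjusted p, and it rose. In the same test 2.08% of all 11377 genes tested passed, 1.63% higher and 0.457% lower. Of the 48 RAB genes, 21 had a higher and 27 a lower estimate in sGC animals, where 48.3% of all genes were higher, and the median of their log2 fold changes was -0.014 beside -0.005 over all genes. At an unadjusted p below 0.05 there were 9 of 48 RAB genes (4 higher, 5 lower), against a background of 19.6%.

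The 6 F1 controls had 119.6, 145.03, 146.96, 132.2, 133.3 and 123.2 CPM of RAB3C, and the 5 sGC animals had 184.2, 193.8, 183.9, 147.9 and 203.1 CPM. The groups did not overlap, although the lowest sGC animal, replicate 4, lay just above the highest control. The log2 fold change was 0.45 (SE 0.076), with an adjusted p of 0.0109 in edgeR's quasi-likelihood test. RAB3C was called under every alternative and without each library in turn, with adjusted p between 0.00135 and 0.0358 over the leave-one-out fits, and without libraries 32 to 36 its log2 fold change was 0.49 (adjusted p = 0.00418).

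The other RAB3 genes moved less. RAB3A, the most studied RAB of transmitter release, had 506, 524 and 556 CPM as lowest, median and highest of the F1 controls and 473, 446, 522, 439 and 530.0 CPM in the sGC animals. Of the sGC animals 3 lay below all controls and 2 within their range, and the log2 fold change of -0.13 (SE 0.055) did not pass (adjusted p = 0.219). RAB3B gave -0.18 (adjusted p = 0.443) and RAB3D -0.03 (adjusted p = 0.738) on the log2 scale.

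As a share of all RAB3A to RAB3D reads, RAB3C had a median of 16.4% in F1 controls (15.9% to 18.4%) and 23.5% in F1 sGC animals (20.7% to 24.9%). RAB3A held a median of 66.7% in F1 controls (64.9% to 67.7%) and 61.5% in F1 sGC animals (57.4% to 63.1%). Both shares were apart between the F1 groups. As the shares are parts of 1 total, a rise of RAB3C by itself lowers the RAB3A share. The lower RAB3A share is thus no result separate from the RAB3C call. In F2 the RAB3C share was 29.9% in controls (26.5% to 31.2%) and 28.4% in sGC animals (24.3% to 33.3%), and in F3 it was 19.4% in controls (15.9% to 21.6%) and 19.3% in sGC animals (15.1% to 28.5%). The groups overlapped in F2 and F3. Of the F3 sGC animals, replicates 1 and 6 stood out with 26.8% and 28.5%, above all F3 controls, and RAB3C levels of 205 and 233 CPM. These shares are shares of reads and describe the same libraries as the RAB3C values above.

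**Figure D2:**
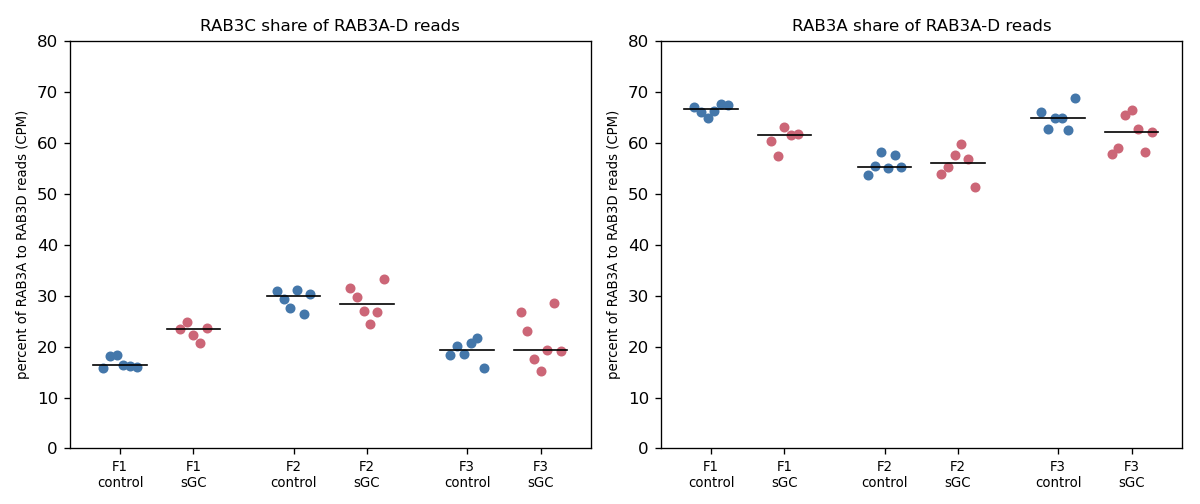
Share of RAB3C (left) and RAB3A (right) in the CPM of RAB3A to RAB3D together, in percent, for each animal (points) with the group median (line). In F1 the sGC animals lie above the controls for RAB3C, at 20.7% to 24.9% against 15.9% to 18.4%, and below them for RAB3A, while the groups overlap in F2 and F3.

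RAB22A, an early endosome RAB, was the next RAB gene in F1. Controls had 86.1, 89.8 and 91.0 CPM as lowest, median and highest, and the 5 sGC animals had 99.0, 96.97, 95.15, 113.6 and 94.1 CPM. All 5 sGC animals were above all controls, replicate 4 by the most. The log2 fold change was 0.16 (SE 0.047), with an adjusted p of 0.0847, and RAB22A was called in F1 by the likelihood ratio test, by DESeq2 and in the fit of all 36 libraries, so that its call depended on the test.

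RAB7A, the late endosome RAB, was the remaining RAB gene whose F1 groups did not overlap. Controls ran from 284 to 293 CPM (median 287) and sGC animals from 269.7 to 282 CPM (median 279), and the log2 fold change was -0.05 (SE 0.032, adjusted p = 0.380). In all, 3 of 48 RAB genes had F1 groups that did not overlap, where 4.41% of all genes tested did.

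RAB11B, RAB39B and RAB39A completed the 5 smallest p-values of F1. RAB11B, a recycling endosome RAB abundant in brain, had 94.5 to 109.8 CPM in controls and 88.0 to 95.97 CPM in sGC animals (log2 fold change -0.14, adjusted p = 0.0903). RAB39B, a neuronal RAB, had 59.2 to 69.3 CPM in controls and 60.6 to 73.3 CPM in sGC animals (log2 fold change 0.14, adjusted p = 0.186), and its paralog RAB39A gave 0.27 (adjusted p = 0.188). None of these passed in the edgeR quasi-likelihood test, and their ranges overlapped between the groups. RAB11B passed by DESeq2 (adjusted p = 0.0435), and in the edgeR fit of all 36 libraries RAB11B (adjusted p = 0.0492) and RAB39B (adjusted p = 0.0409) passed.

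By role, RAB3C was the 1 call among 8 secretory and synaptic vesicle RABs in F1, where 2.08% of all genes passed. The 12 RABs of ER and Golgi had estimates from -0.18 (RAB33A) to 0.09 (RAB6B) and no call. No call was made among 6 early endosome, 10 recycling and exocytic, 9 late endosome, lysosome and autophagy, and 3 other RABs (RAB23, RAB28 and RAB40C). RAB7B, which acts between late endosome and Golgi, had the lowest estimate of all, -0.30 (adjusted p = 0.223), and passed in the fit without F1 sGC replicate 1. RAB8B and RAB33B, both named by the study, gave 0.13 (adjusted p = 0.305) and 0.00 (adjusted p = 0.993).

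Other cell markers also moved in F1. Astrocyte markers had a summed level of 8508 to 11105 CPM in controls and 9720 to 15907 CPM in sGC animals, 9 of 9 had a higher estimate, and SLC4A4, a bicarbonate transporter, passed. Markers of meningeal fibroblasts summed to 165 to 361 CPM in controls and 145 to 218 CPM in sGC animals, with DCN and LUM lower among 8 listed. Neuronal markers summed to 7769 to 8564 CPM in controls and 7931 to 9100 CPM in sGC animals, with none of 8 called. The lists of oligodendrocytes, microglia, endothelial cells, choroid plexus and hippocampal neurons had no call in F1, and no marker list had a call in F2. None of the markers listed was at 0 in any library. The part of these shifts in the RAB3C result was not tested.

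In F2, the first generation through the paternal line, no RAB gene passed, and 0% of the 11414 genes tested did in edgeR's quasi-likelihood test. DESeq2 called 12 genes and the likelihood ratio test 6, no RAB gene among them. The smallest adjusted p of a RAB gene was 0.711. At an unadjusted p below 0.05 stood 2 of 47 RAB genes, beside 6.64% of all genes.

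These were RAB31 and RAB27B. RAB31, which acts between the Golgi and endosomes, ran from 25.5 to 29.9 CPM in F2 controls (median 26.7) and from 26.2 to 32.5 CPM in sGC animals (median 30.3), a log2 fold change of 0.14 (SE 0.055). RAB27B, a RAB of secretory vesicles, ran from 43.6 to 48.2 CPM in controls (median 44.9) and from 41.3 to 45.8 CPM in sGC animals (median 42.5), a log2 fold change of -0.09 (SE 0.039). In both genes the groups overlapped. The next by p were RAB3D (0.09), RAB15 (0.06) and RAB33A (-0.09), with adjusted p of 0.769, 0.777 and 0.781.

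RAB3C was level in F2, with 215 to 253 CPM in controls (median 234) and 198 to 261 CPM in sGC animals (median 233), a log2 fold change of -0.01 (SE 0.059). RAB8B gave -0.05 (adjusted p = 0.892) and RAB33B 0.08 (adjusted p = 0.796). Over the 47 RAB genes, 20 had a higher and 27 a lower estimate, where 49.7% of all genes were higher. The median absolute log2 fold change was 0.037 for RAB genes and 0.044 for all genes, and no RAB estimate was beyond 0.3 in either direction. The F2 groups overlapped for every RAB gene, while they did not for 0.403% of all genes.

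In F3, RAB13 and RAB22A rose and RAB3A and RAB2B fell. These were 4 of 48 RAB genes, where 5.04% of all 11359 genes tested passed (2.17% higher and 2.87% lower). At an unadjusted p below 0.05 there were 12 RAB genes, 4 higher and 8 lower, against 21.1% of all genes. Estimates were higher for 24 RAB genes and lower for 24, where 51.7% of all genes were higher, and their median log2 fold change was 0.001 beside 0.005 over all genes.

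RAB13 carries cargo from the Golgi to the recycling endosome and cell junctions. F3 controls had 24.2, 21.9, 21.9, 18.5, 20.8 and 22.2 CPM, and the 7 sGC animals 27.4, 24.1, 25.4, 24.8, 25.02, 26.9 and 25.1 CPM. In 6 of 7 sGC animals RAB13 was above all controls, and replicate 2 lay just under the highest control. The log2 fold change was 0.24 (SE 0.056) and the adjusted p 0.0187. In F1 the same gene gave 0.02 (adjusted p = 0.904), and it was not in the F2 table.

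RAB3A had 501, 531 and 565 CPM as lowest, median and highest of the F3 controls and 443, 424, 504, 501, 470, 476 and 486 CPM in the sGC animals. The sGC animals were all below the control mean and 5 of 7 were below every control. The log2 fold change was -0.17 (SE 0.043), with an adjusted p of 0.0285. The RAB3 paralogs gave -0.27 for RAB3B (adjusted p = 0.248), 0.06 for RAB3C (adjusted p = 0.839) and 0.02 for RAB3D (adjusted p = 0.880).

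RAB2B, which acts between ER and Golgi, had 79.1, 84.1 and 86.1 CPM as lowest, median and highest of the F3 controls, and 77.2, 77.7, 77.5, 78.9, 77.4, 75.2 and 74.8 CPM in the sGC animals. It was the RAB gene whose F3 groups did not overlap, as did 2.71% of all genes tested, with a gap of less than 1 CPM between the groups. The log2 fold change was -0.12 (SE 0.030), with an adjusted p of 0.0341. Its paralog RAB2A gave -0.07 (adjusted p = 0.327).

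RAB22A had 86.0, 89.0 and 96.3 CPM as lowest, median and highest of the F3 controls and 105.5, 94.6, 92.3, 99.9, 97.6, 110.1 and 98.1 CPM in the sGC animals. All 7 sGC animals were above the control mean and 5 were above every control. The log2 fold change was 0.15 (SE 0.042), with an adjusted p of 0.0479, close to the threshold.

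**Figure D3:**
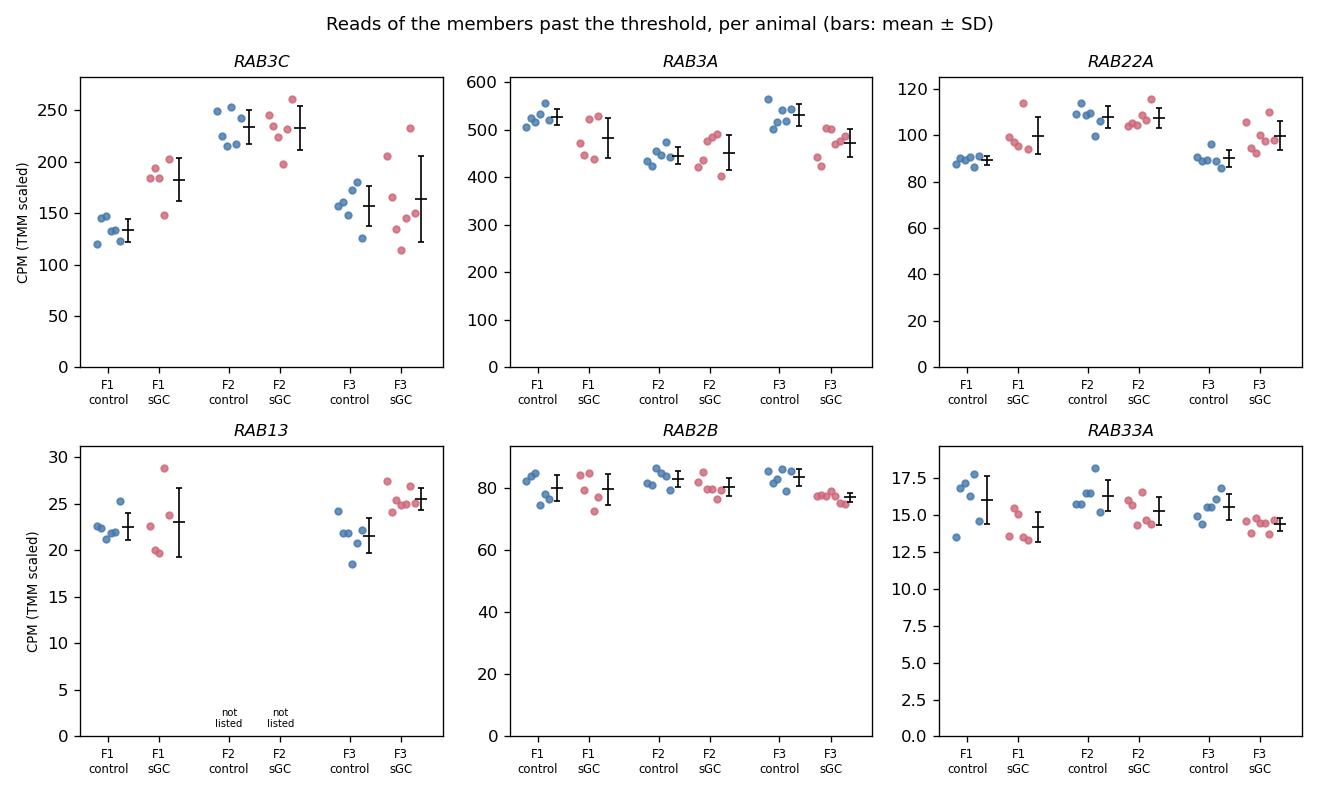
CPM, TMM scaled within a generation, of the 6 RAB genes past the threshold in a within-generation test or in the mean effect, for each control (blue) and sGC animal (red), with the mean ± SD beside each group; axes start at 0. RAB3C is apart in F1 only, RAB13 and RAB2B differ in F3, the sGC means of RAB3A are lower and those of RAB22A higher in F1 and F3, and the sGC mean of RAB33A is slightly lower in each generation.

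The F3 calls rested on all libraries together. When each F3 library was left out in turn, RAB13 was called in 13 of 13 fits, RAB3A in 7, RAB2B in 5 and RAB22A in 2. In the fit without F3 sGC replicate 5, RAB13 was the 1 RAB gene called, and 288 of all genes passed. Without libraries 32 to 36, that is without F3 sGC replicates 5 and 6, the estimates of the 4 genes kept their sign at 0.23, -0.17, -0.11 and 0.12 on the log2 scale (RAB13, RAB3A, RAB2B, RAB22A), but adjusted p rose to 0.0660, 0.0772, 0.113 and 0.130. In that fit RAB15 was the 1 RAB gene called (log2 fold change 0.20, adjusted p = 0.0427), and 317 of all genes passed, against 573 with all F3 libraries. RAB15, a neuronal RAB of early and recycling endosomes, had 337 to 373 CPM in F3 controls and 332 to 451 CPM in sGC animals. With all libraries it gave 0.17 (adjusted p = 0.110). Its lowest sGC animal, replicate 6, was below every control, and 5 of 7 were above every control.

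By role, F3 had 1 call each among 8 secretory and synaptic vesicle RABs (RAB3A), 12 RABs of ER and Golgi (RAB2B), 6 early endosome RABs (RAB22A) and 10 recycling and exocytic RABs (RAB13). Over all genes 5.04% passed, and role lists of this size are too small to be compared by such counts. In the ER and Golgi group 7 of 12 had a lower estimate, among them RAB1A (-0.10, adjusted p = 0.116) and RAB33A (-0.12, adjusted p = 0.193), and RAB30, a Golgi RAB, gave 0.14 (adjusted p = 0.118). In the recycling group RAB14 gave -0.09 (adjusted p = 0.121) and RAB11A -0.11 (adjusted p = 0.132). No call was made among 9 late endosome, lysosome and autophagy RABs, with estimates from -0.11 (RAB29) to 0.16 (RAB32), or among RAB23, RAB28 and RAB40C. RAB8B gave -0.01 (adjusted p = 0.928) and RAB33B 0.04 (adjusted p = 0.794).

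Beside these results, astrocyte markers summed to 9424 to 10406 CPM in F3 controls and 10636 to 12253 CPM in F3 sGC animals, so that the sums did not overlap. Of 9 astrocyte markers 9 had a higher estimate and 4 passed (GLUL, S100B, SLC1A2 and SLC4A4). Neuronal markers summed to 7730 to 8447 CPM in F3 controls and 7399 to 8366 CPM in sGC animals, with 7 of 8 lower and 4 called lower: the vesicle release proteins SNAP25 (-0.19) and SYT1 (-0.19) and the GABA synthesising enzymes GAD1 (-0.24) and GAD2 (-0.20). RAB3A and RAB2B fell and RAB13 and RAB22A rose in these same libraries. The part of a shift in cell types in the 4 RAB results was not tested. Markers of oligodendrocytes, microglia, endothelial cells, meningeal fibroblasts, choroid plexus and the hippocampal neuron list had no call in F3.

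**Figure D4:**
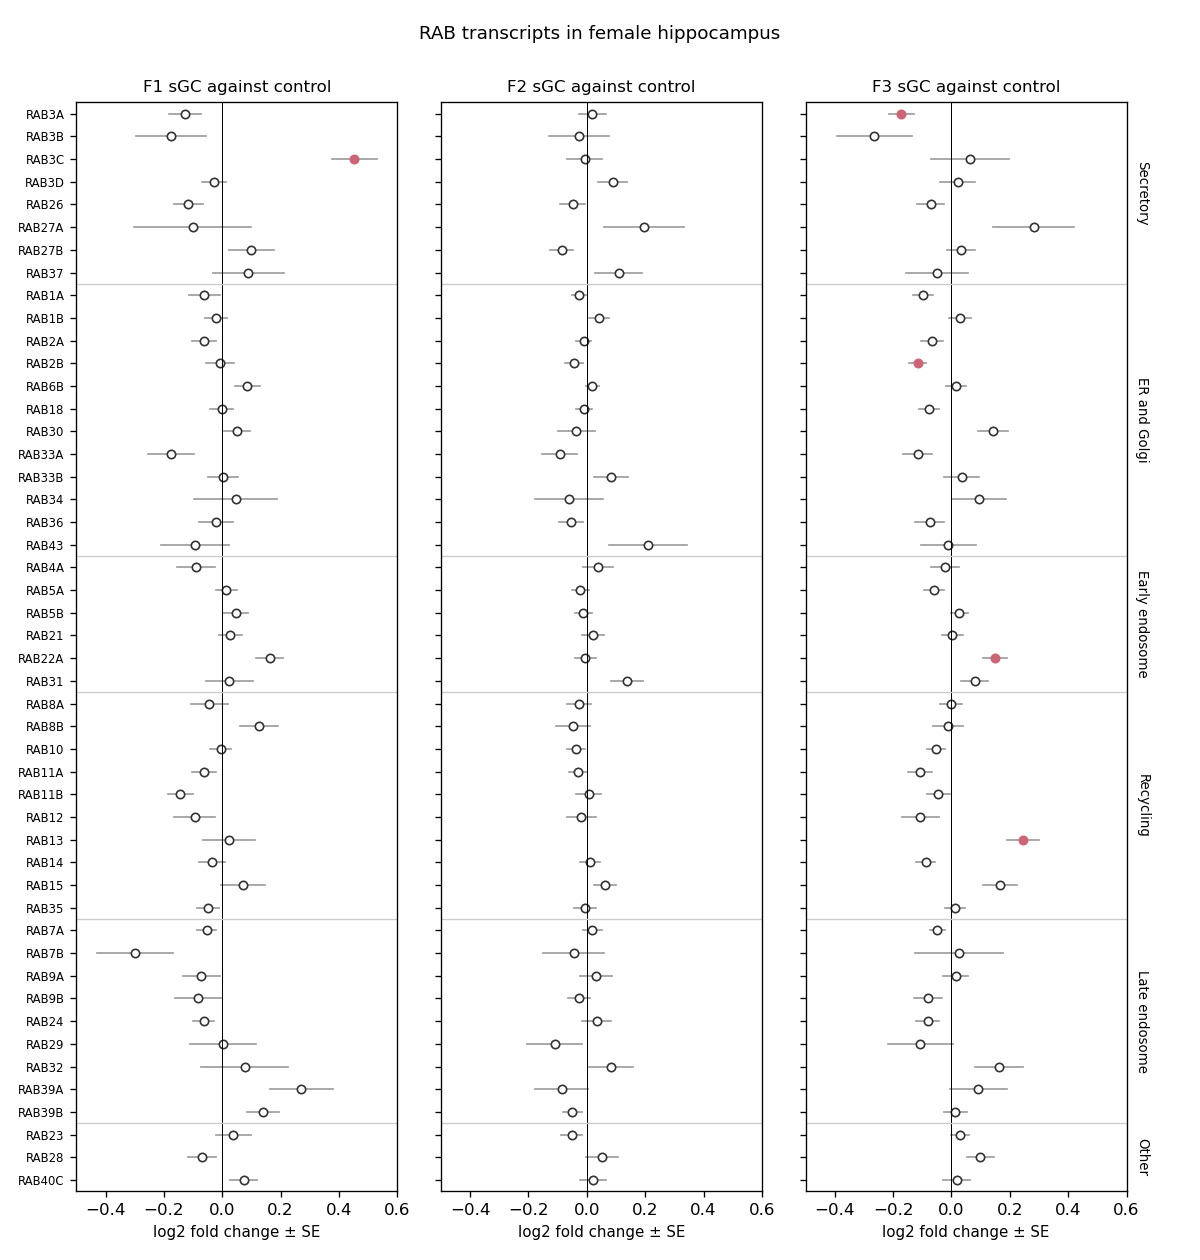
log2 fold change of sGC against control (points, with bars of ± SE) for all RAB genes in F1, F2 and F3, grouped by role, with genes past the threshold filled. RAB3C stands out to the right in F1 at 0.45, F2 shows estimates near 0 and none filled, and F3 has RAB13 and RAB22A to the right and RAB3A and RAB2B to the left.

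Whether the sGC effect differed between generations was tested as an interaction over all 36 libraries and 47 RAB genes. No RAB gene passed for F2 minus F1, where 0.29% of 11390 genes did, nor for F3 minus F1 or F3 minus F2, where 0% did. DESeq2 called 270, 67 and 0 genes in these contrasts, no RAB gene among them. At an unadjusted p below 0.05 were 7 RAB genes for F2 minus F1 (16.8% of all genes), 4 for F3 minus F1 (13.1%) and 3 for F3 minus F2 (9.08%).

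The size of the RAB3C effect differed by -0.47 (SE 0.16) between F2 and F1 and by -0.40 (SE 0.16) between F3 and F1 on the log2 scale, with adjusted p of 0.126 and 0.271 in edgeR. A difference of the RAB3C effect between generations was thus not shown at this threshold, although only F1 had a call. Without libraries 32 to 36 RAB3C passed for F3 minus F1, the 1 RAB gene of 47, and 431 of all genes passed there, against 0 with all libraries. The smallest adjusted p for F2 minus F1 was that of RAB39B, 0.104, with a difference of -0.20. For F3 minus F2 the leading gene was RAB3A, with a difference of -0.19 (SE 0.069, adjusted p = 0.494), followed by RAB22A with 0.16 (adjusted p = 0.504).

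The mean of the 3 within-generation effects asked whether the average effect over F1, F2 and F3 differed from 0. It did not ask whether the effect had the same sign in each generation. RAB22A was higher (mean log2 effect 0.10, SE 0.024, adjusted p = 0.00836), and RAB33A (-0.13, SE 0.034, adjusted p = 0.0217) and RAB3A (-0.09, SE 0.029, adjusted p = 0.0436) were lower in sGC animals. These were 3 of 47 RAB genes, where 8.53% of 11390 genes passed (5.07% higher and 3.46% lower). The mean effect was above 0 for 23 RAB genes and for 50.7% of all genes, and 14 RAB genes had an unadjusted p below 0.05 beside 24.6% of all genes. This test reuses the libraries of the comparisons above. Astrocyte markers also moved in it, with 9 of 9 higher and 7 passing (ALDH1L1, AQP4, GFAP, GJA1, S100B, SLC1A2 and SLC4A4), a list median of 0.19. Among 8 neuronal markers 7 had a lower estimate, and MAP2 was the 1 call (0.19, higher). No other marker list had a call in the mean effect, and the part of these shifts in the RAB results was not tested.

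RAB33A, a RAB of Golgi-derived vesicles in growing axons, passed in no generation alone. Its F1 controls had 13.55, 16.6 and 17.8 CPM as lowest, median and highest and the F1 sGC animals 13.58, 15.5, 15.1, 13.53 and 13.35 CPM. In F2 the lowest, median and highest were 15.2, 16.1 and 18.2 CPM in controls and 14.3, 15.2 and 16.6 CPM in sGC animals, and in F3 they were 14.4, 15.5 and 16.9 CPM in controls and 13.7, 14.5 and 14.8 CPM in sGC animals. The groups overlapped in each generation, with the sGC median below that of the controls each time. The estimates were -0.18, -0.09 and -0.12 on the log2 scale, with adjusted p of 0.237, 0.781 and 0.193.

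The RAB22A mean came from F1 and F3 (0.16 and 0.15), as F2 gave -0.01 with 99.5 to 114 CPM in controls and 104 to 116 CPM in sGC animals. RAB3A likewise gave -0.13, 0.02 and -0.17 in F1, F2 and F3. Next in order were RAB11A (-0.06, adjusted p = 0.0502) and RAB15 (0.10, adjusted p = 0.0709). Without libraries 32 to 36 no RAB gene passed in the mean effect, where 54 of all genes did, with adjusted p of 0.0799 for RAB22A, 0.214 for RAB33A and 0.162 for RAB3A.

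**Figure D5:**
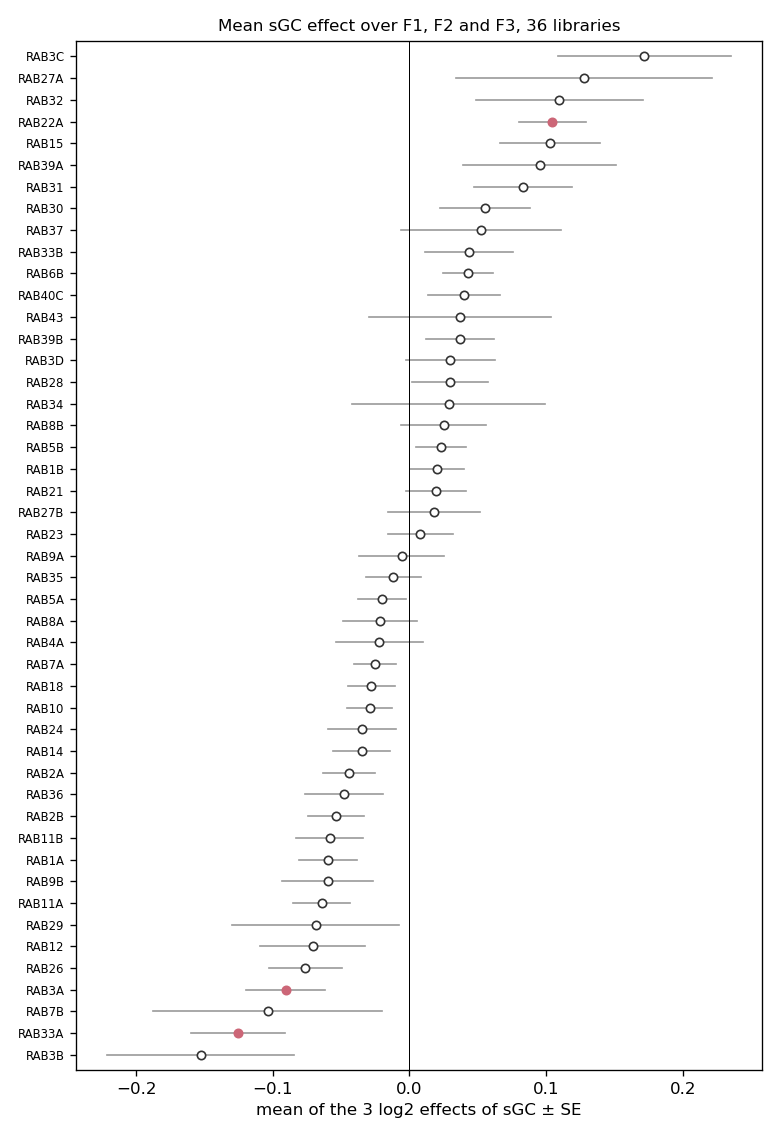
Mean of the 3 log2 effects of sGC (points) with ± SE (bars) for the 47 RAB genes listed in all 3 tables, in order of size, with genes past the threshold filled. RAB22A is filled on the right at 0.10 and RAB3A and RAB33A on the left at -0.09 and -0.13, while RAB3C and RAB3B lie farther out at 0.17 and -0.15 with wider bars.

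The estimate had the same sign in F1, F2 and F3 for 20 of the 47 RAB genes, 7 higher (RAB15, RAB21, RAB31, RAB32, RAB33B, RAB40C and RAB6B) and 13 lower (RAB10, RAB11A, RAB12, RAB18, RAB1A, RAB26, RAB2A, RAB2B, RAB33A, RAB36, RAB3B, RAB8A and RAB9B). Over the 11161 genes tested in all 3 generations, 34.3% had the same sign throughout (17.3% higher and 16.99% lower), and the 20 RAB genes were 42.6%. These shares are a description, with no test.

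The proteins that load, unload and read RABs were followed in a list of 129 genes (exchange factors, GTPase activating proteins, effectors, prenylation and GDI, kinases and phosphatase). The list was chosen with earlier results of these data known. Its counts beside the shares over all genes are therefore a description and no independent test. In F1, 7 of 105 tested passed and all 7 were higher, where 2.08% of all genes passed (1.63% higher and 0.457% lower), with a list median of 0.04 beside -0.01 over all genes. They were the exchange factors DENND4A (0.24), DENND5A (0.17) and SBF2 (0.22), the RAB5 tether EEA1 (0.22), the RAB11 effector RAB11FIP2 (0.19), the RAB6 effector BICD1 (0.16) and the vesicle motor MYO5A (0.24). The 5 F1 sGC animals had 43.4 to 46.0 CPM of DENND4A, above the 37.3 to 39.5 CPM of the controls. The groups of all 7 genes did not overlap, where those of 4.41% of all genes tested did not. As the 7 were picked by adjusted p in these same libraries, this is no separate result.

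In F2 none of 106 list genes passed. In F3, 9 of 105 did, 6 higher and 3 lower, where 5.04% of all genes did (2.17% higher and 2.87% lower), with a list median of 0.02 beside 0.00. Higher were the GTPase activating proteins TBC1D8 (0.24) and SGSM2 (0.18), the exchange factors RIN2 (0.19) and DENND4C (0.13), the RAB3 effector RIMS2 of the release site (0.20) and the RAB13 effector MICALL2 (0.29). Lower were TRAPPC9, a subunit of an exchange factor complex (-0.21), GDI2, which extracts RABs from membranes (-0.12), and the effector RUFY3 (-0.11). GDI2 ran from 255 to 277 CPM in F3 controls and from 234 to 247 CPM in sGC animals, with no overlap, as for 2.71% of all genes tested.

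The sGC effect was smaller in F2 than in F1 for DENND4A (difference -0.30, adjusted p = 0.0270) and MYO5A (-0.28, adjusted p = 0.0336), 2 of 104 list genes, where 0.29% of all genes passed. In the mean effect 20 of 104 passed, 16 higher and 4 lower, where 8.53% of all genes passed (5.07% higher and 3.46% lower), with a list median of 0.03 beside 0.00. The 16 included DENND5A (0.12), RIMS1 (0.15), RIMS2 (0.16), TBC1D16 (0.16), TBC1D2B (0.16) and FYCO1 (0.17), and the 4 lower were GDI2 (-0.08), USO1 (-0.09), TBC1D19 (-0.13) and DENND6B (-0.14).

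These counts moved with the processing and with single libraries. In F1 the 7 calls became 13 by the likelihood ratio test, 16 by DESeq2, 20 in the fit of all 36 libraries, 1 without libraries 32 to 36 and 0 with the replicate block. Over all genes, F1 had 237 calls in the main analysis and 598, 658, 852, 97 and 72 in these fits, in the same order. When each F1 library was left out the count of list genes ran from 1 to 7, beside 56 to 342 over all genes. The list count was 1 to 4 without control replicate 1, 2, 4, 5 or 6 or sGC replicate 2, 3 or 5. In F3 the 9 calls became 14 by the likelihood ratio test, 15 by DESeq2 and 5 in the fit of all 36 libraries. They became 3 without libraries 32 to 36, 1 with the block and 6 to 10 with each library left out. Over all genes, F3 had 573 calls in the main analysis. The first 4 of these fits gave 788, 944, 334 and 317 over all genes, in the same order. The block gave fewer than 573, and leaving out each library gave 288 to 639. For F2 minus F1 the 2 calls became 6 by the likelihood ratio test, 8 by DESeq2, 1 without libraries 32 to 36 and 0 with the block. Over all genes, 33 calls for F2 minus F1 became 168, 270, 68 and 4 in these fits, in the same order. With each library left out the count of list genes for F2 minus F1 ran from 0 to 9. It was 0 without F1 control replicate 1 or 5, F1 sGC replicate 5, F2 control replicate 2 or 4 or F2 sGC replicate 4 or 5, and 1 without F1 sGC replicate 2 or F2 sGC replicate 1, 2 or 3. It was 4 to 9 without F1 sGC replicate 1, F2 control replicate 5, F2 sGC replicate 6, F3 control replicate 5 or 6 or F3 sGC replicate 3 or 6. The 20 calls of the mean effect were 15 to 25 with each library left out, and 2 without libraries 32 to 36. Over all genes the mean effect had 971 calls in the main analysis and 54 without libraries 32 to 36.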

How the data were processed

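Per the labels and the study's methods, polyadenylated RNA of the right hippocampus was made into TruSeq V2 libraries and sequenced as 51-base reads, which were aligned with TopHat2 and analysed in edgeR by the authors; the build and counter for RNA are not given in the sources used here. The authors deposited whole-number read counts per gene and library, 1 table per generation, without normalization. Beside the counts stand the authors' own fold changes and p-values, and the methylation tables hold only the authors' comparisons; neither was used. Strand use is not stated, and reads shared by paralogs or by overlapping genes may be split between them.

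Counts were analysed with edgeR 4.0.16 in R 4.3.3 (filterByExpr, TMM, quasi-likelihood test, Benjamini-Hochberg adjustment over all genes tested, threshold 0.05), each generation alone. Interactions and the mean effect were fitted over the 36 libraries and the genes of all 3 tables. Figures were drawn with matplotlib 3.10.9, and the fits were tested on simulated data. Alternatives were the likelihood ratio test, DESeq2 1.42.0, its size factors, no filter, a fit of all 36 libraries, a replicate block, and leaving out libraries 32 to 36 or each library in turn.

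Library totals of 13507449 to 19767033 reads gave RAB genes 31 reads or more. Members, roles, marker and pathway lists, the last written from general knowledge, were chosen with earlier results of these data known. Genes named were those past the threshold, the 5 with the smallest p in each generation and the mean effect, those with groups apart, the 5 with the most and the fewest reads, and RAB8B and RAB33B. Other RAB genes named beside them were chosen after their values were seen. Animals of a group had independent mothers.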

Additional observations from a re-analysis of the deposited data

Results flagged for a closer look

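Over the 25 RAB genes named by rule, some of them for a small p or for groups that did not overlap, 148 groups of 5 to 7 animals were checked. Other RAB genes were not checked in this way. Of the 148 groups, 9 (6.08%) held 1 animal far from the others by Dixon's test, where chance gives about 1 in 20. RAB22A in F1 sGC replicate 4 was the highest of its group at 113.6 CPM, with the nearest animal at 99.0 CPM, and RAB31 was the highest in the same animal at 34.7 CPM, with the nearest at 28.2 CPM. Without this animal, whose profile had the lowest correlation of all libraries with its group mean (0.994), the log2 fold change of RAB22A in F1 was 0.11 (adjusted p = 0.0749).

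F1 control replicate 6 was the highest of its group for RAB13 (25.3 CPM, nearest 22.7 CPM) and for RAB37 (6.46 CPM, nearest 5.52 CPM), and F1 control replicate 1 was the lowest for RAB6B (743 CPM, nearest 780.1 CPM). In F2 controls, replicate 6 was the lowest for RAB2A (494 CPM, nearest 508 CPM).

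In F3, sGC replicate 6 was the lowest for RAB11A (164 CPM, nearest 180.0 CPM), sGC replicate 3 the lowest for RAB39A (4.77 CPM, nearest 6.16 CPM), and control replicate 4 the highest for RAB8B (17.3 CPM, nearest 15.7 CPM). None of these animals was in a group whose gene had passed the threshold within its generation.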

How the results depend on the processing

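The number of RAB genes called in F1, 1 in the main analysis, was 2 by the likelihood ratio test (RAB22A added), 3 by DESeq2 and 4 in the fit of all 36 libraries. Over all genes, F1 had 237 calls in the main analysis and 598, 658 and 852 in these fits, in the same order. When each library was left out the F1 count of RAB genes was 1 to 2, with 2 (RAB7B added) without F1 sGC replicate 1, where 319 of all genes passed. In F3 the 4 calls became 6 by DESeq2, 2 in the fit of all 36 libraries, where RAB13 was not tested, 1 without libraries 32 to 36, where 2 of 7 sGC libraries were dropped, and 1 with the replicate block. Over all genes, F3 had 573 calls in the main analysis. It had 944 by DESeq2, 334 in the fit of all 36 libraries and 317 without libraries 32 to 36. With the replicate block it had fewer than 573. Leaving out each F3 library gave 1 to 4 RAB calls, with RAB13 in each, beside 288 to 639 calls over all genes. The RAB count was 1 without control replicate 1 or 6 or sGC replicate 1, 2 or 5. It was 2 without control replicate 3 or 4 or sGC replicate 7. RAB3A was lost in 6 of 13 such fits (without control replicate 1, 4 or 6 or sGC replicate 1, 2 or 5, adjusted p 0.0521 to 0.0666), RAB2B in 8 (without control replicate 1, 3, 4 or 6 or sGC replicate 1, 2, 5 or 7, 0.0511 to 0.0753) and RAB22A in 11 (0.0510 to 0.0906), kept only without control replicate 4 or sGC replicate 3. RAB15 was called without sGC replicate 6 (adjusted p = 0.0139).

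F2 gave 0 calls under every alternative and without each library. For F2 minus F1 the count was 0 to 1 over the leave-one-out fits, with RAB39B called without F1 sGC replicate 4. For F3 minus F1 it was 1 without libraries 32 to 36, where 431 of all genes passed, against 0 in the main analysis. The mean effect had 3 calls, 6 by DESeq2, 0 without libraries 32 to 36 and 2 to 6 with each library left out, with 5 without F1 control replicate 6 or F3 sGC replicate 4 and 6 without F1 sGC replicate 3. Over all genes the mean effect had 971 calls, 1198 by DESeq2 and 54 without libraries 32 to 36. RAB22A and RAB33A remained in all 36 leave-one-out fits of the mean effect, while RAB3A was lost in 18 (adjusted p up to 0.0863). The cause of these changes was not tested.

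Estimates near 0 changed sign for RAB33B in F1, to -0.0083 without libraries 32 to 36 and within -0.011 to 0.027 with each library left out (lower without control replicate 1 or 2 or sGC replicate 1 or 4), and for RAB8B in F3, to 0.0073 with the replicate block and within -0.026 to 0.018 with each library left out (higher without control replicate 4 or sGC replicate 7).

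The replicate numbers did not pair the animals: the correlation of same-numbered deviations ran from -0.077 to 0.321 in F1, -0.414 to 0.200 in F2 and -0.358 to 0.044 in F3, and 1, 1 and 0 numbers matched best with themselves. Under the block the call of RAB3C in F1 stayed (adjusted p = 0.0331), and in F3 RAB13 stayed (adjusted p = 0.0494).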
